A study of Rattus norvegicus with 12 samples.

Results

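The comparison described here sets the serum microRNAs of rats given caffeine followed by dextromethorphan against those of rats given vehicle. Its members were all mature microRNAs above 0 in at least 3 of the 12 libraries of the study, after table rows that carry the same mature name were summed. They numbered 479 of the 752 mature names, and 366 of the 479 were abundant enough to test (a mean of at least 80 FPKM, the deposited unit explained with the processing). The other 113 members held at most 0.009% of the reads of any of the 6 libraries compared, and none had more than 8 reads in one of them.

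All animals were male Sprague-Dawley rats of the Jcl:SD stock, 7 weeks old at treatment, and the design text gives 5 rats per group. The control group received the vehicle, sterile distilled water. The combination group received a single oral dose of 180 mg/kg caffeine and then, 1 h later, 200 mg/kg dextromethorphan hydrobromide monohydrate, and blood was drawn under anesthesia 1 h after the second drug. The caffeine group and the dextromethorphan group received the same dose of 1 of the drugs. Each of the 4 groups had 3 libraries, made from RNA of 200 uL of serum. The labels do not tie libraries to separate animals, so p-values here reflect library-to-library spread. Libraries are called here by the names of their data columns: ctrl1, ctrl3 and ctrl5 for the controls, and CAFDEX2, CAFDEX3 and CAFDEX6 for the combination.

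MicroRNAs are short RNAs, cut from hairpin precursors, that guide Argonaute proteins to messenger RNAs through their seed, the bases 2 to 8 from the 5′ end. Those in serum travel in vesicles or bound to Argonaute or lipoproteins after release from blood cells and tissues, and several are used as markers of injury because 1 organ makes most of them: miR-122 comes from hepatocytes and miR-206 from skeletal muscle. Caffeine is an antagonist of adenosine receptors, and dextromethorphan is a cough suppressant that blocks NMDA receptors and is cleared by the liver. In serum, a change in the number of cells of a type and a change in the RNA that each cell releases cannot be told apart.

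Mature sequences were found for 442 of the 479 members and for 37 of the 40 microRNAs that passed the test, in the RefSeq microRNA table of build GRCr8. The first set shown holds microRNAs that rose and mark a cell type or an organ, with the seed in capitals: miR-146a-5p and miR-155-5p of activated immune cells, miR-192-5p and miR-192-3p of liver, gut and kidney, and miR-206-3p of skeletal muscle.

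miR-146a-5p: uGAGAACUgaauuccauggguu

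miR-155-5p: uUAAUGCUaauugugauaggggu

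miR-192-5p: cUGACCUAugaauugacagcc

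miR-192-3p: cUGCCAGUuccauaggucacag

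miR-206-3p: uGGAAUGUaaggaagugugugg

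The second set holds microRNAs of the related miR-17-92 and miR-106b-25 clusters, and miR-92b-3p, which comes from another locus, because in each seed family some members passed the test and others did not. miR-17-5p, miR-20a-5p and miR-93-5p share the seed AAAGUGC, and miR-92a-3p, miR-92b-3p and miR-25-3p share AUUGCAC.

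miR-17-5p: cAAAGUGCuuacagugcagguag

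miR-20a-5p: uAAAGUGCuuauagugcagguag

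miR-93-5p: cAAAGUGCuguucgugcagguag

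miR-92a-3p: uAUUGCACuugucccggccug

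miR-92b-3p: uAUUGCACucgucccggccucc

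miR-25-3p: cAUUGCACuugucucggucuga

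The third set holds 3 of the lower microRNAs with other seeds, shown as examples: miR-128-3p, which is enriched in brain, miR-339-5p, and miR-652-3p, which is often used to normalise serum data.

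miR-128-3p: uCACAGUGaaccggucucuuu

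miR-339-5p: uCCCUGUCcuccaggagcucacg

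miR-652-3p: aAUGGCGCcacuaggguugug

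Control libraries held 1304868 to 2625593 reads assigned to the listed microRNAs and combination libraries 758290 to 1160717. All 3 combination libraries were shallower than all 3 controls (exact permutation p = 0.1, the smallest that 3 against 3 allows; adjusted p = 0.133 over 4 quantities). The 10 most abundant microRNAs, ranked by FPKM, took 72.9% ± 1.97 of control reads and 72.3% ± 4.03 of combination reads (SD, n = 3 each; exact permutation p = 0.8). miR-191a-5p, a microRNA of blood cells and platelets, had the largest share: 33.9%, 39.3% and 35.7% in the controls against 26.3%, 19.2% and 31.2% in the combination libraries, with no overlap (exact permutation p = 0.1, adjusted 0.133). The red-cell index, the log2 ratio of miR-451-5p, a microRNA of red cells, to miR-23a-3p, was -7.73, -7.11 and -7.83 in the controls and -5.67, -5.89 and -6.44 in the combination libraries. It was higher in every combination library than in every control (exact permutation p = 0.1, adjusted 0.133), and its part in the results below was not tested apart from the covariate fit given there. Among the libraries of the single drugs, DEX2 and DEX3 stood apart on the second principal component, with scores of 12.7 and 10.7 against at most 1.58 in the other 10.

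After both drugs, miR-150-5p of lymphocytes, miR-146a-5p and miR-155-5p of activated immune cells, both arms of miR-192 and miR-122-5p of liver, and miR-206-3p and miR-133a-3p of striated muscle rose in serum. The leukocyte list as a whole was mixed, with 3 of 16 tested members higher, 2 lower (miR-223-5p, miR-181d-5p) and 11 not passing, and a median log2 fold change of 0.15 against 0.24 for all tested. MicroRNAs of the cluster miR-17-92 (miR-20a-5p, miR-92a-3p, miR-18a-5p, miR-17-5p), the brain-enriched miR-128-3p and miR-383-5p, as well as miR-652-3p and miR-339-5p, fell. The brain list was mixed as well, with log2 fold changes above 0 in 6 of 14 tested members and a median of -0.09. Of the 366 tested, 40 passed (10.9%), 24 of them higher (6.56%) and 16 lower (4.37%) in the combination group, by limma's moderated test over all 4 groups with Benjamini-Hochberg adjustment at 0.05. An unadjusted p under 0.05 was reached by 103. Before taking log2, 40 FPKM were added to every value, which makes fold changes of low microRNAs smaller than those of the raw values.

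The count of passing microRNAs depended on single libraries and on the red-cell index. It was 3 without ctrl1, 4 without CAFDEX2, 8 without ctrl3, 8 without CAFDEX3 and 20 without CAF5, a library that enters only the shared estimate of the spread. With DEX2 and DEX3 left out together it was 60. miR-150-5p, miR-146a-5p and miR-187-3p passed whichever 1 of the 12 libraries was left out, and each of the other 37 lost its call in at least 1 such fit. With the red-cell index as a covariate 1 microRNA passed, miR-122-5p. The index and the treatment separate the same libraries, so their parts cannot be told apart.

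**Figure D1:**
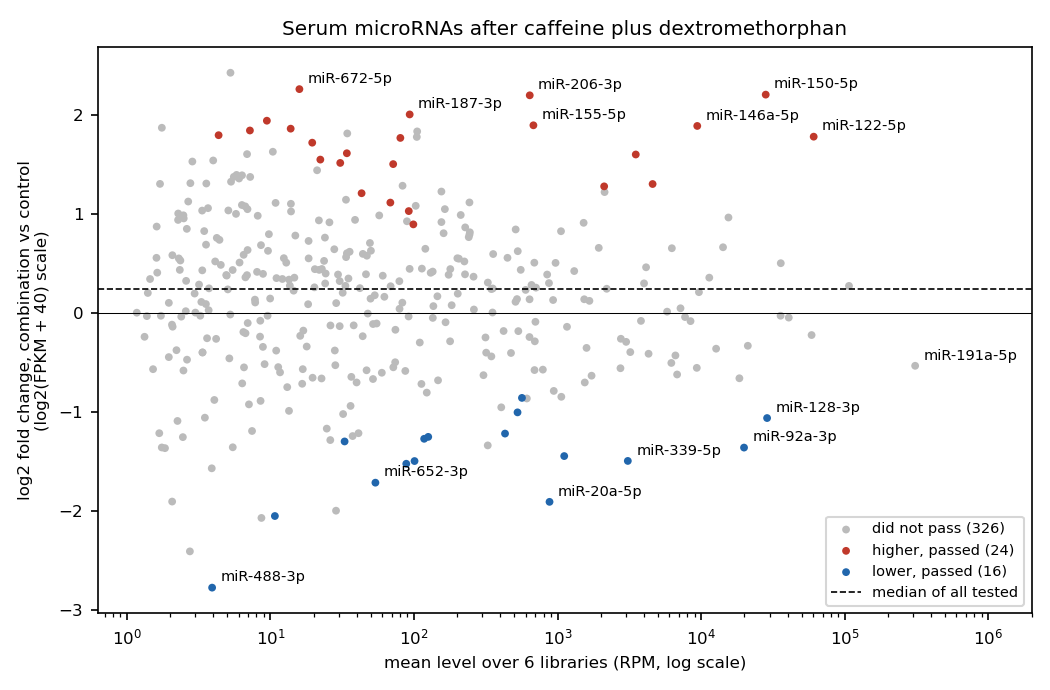
Each point is 1 of the 366 tested microRNAs: the horizontal axis gives its mean level in RPM (reads per 1000000 microRNA reads) over the 6 libraries (log scale) and the vertical axis its log2 fold change, combination against control. Red points (24) rose, blue points (16) fell, and the dashed line marks the median of all tested, 0.24, which lies above 0.

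Values relative to a total move together, and here the 366 log2 fold changes had a median of 0.24. It was 0.09 with median-of-ratios scaling, 0.03 with quantile normalization and 0.04 with miR-191a-5p removed from the totals. The split of calls moved with it, from 24 higher and 16 lower to 19 and 25, 17 and 21, and 12 and 27. Under all 3 of these scalings 25 of the 40 passed in the same direction. The 12 that rose were miR-672-5p, miR-150-5p, miR-206-3p, miR-187-3p, miR-155-5p, miR-146a-5p, miR-147, miR-192-3p, miR-122-5p, miR-139-3p, miR-298-5p and miR-192-5p. The 13 that fell were all 16 lower microRNAs other than miR-17-5p, miR-223-5p and miR-326-3p. No microRNA of the 40 changed sign under any alternative run.

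The 24 higher microRNAs took 3.65%, 3.49% and 7.86% of the reads of the control libraries and 18.6%, 17.2% and 15.6% of those of the combination libraries. The 16 lower ones took 9.43%, 7.92% and 5.93% and then 3.42%, 2.39% and 4.39%. Both sets were picked by their differences between these libraries, so their shares are a description and test nothing. Of the mean share of 17.1% held by the higher set in the combination libraries, miR-122-5p made up 9.20% and miR-150-5p 4.61%. Levels below are in RPM, reads per 1000000 reads assigned to the listed microRNAs, with libraries in the order ctrl1, ctrl3, ctrl5 and then CAFDEX2, CAFDEX3, CAFDEX6. For 37 of the 40 the control and combination libraries did not overlap, beside 33.9% of all 366 tested (124). The 3 exceptions were miR-125b-5p, miR-126a-3p and miR-139-5p. The 124 include the 37, and the 40 were picked on these same values, so their separation is no further support.

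Of the leukocyte list 3 members rose. miR-150-5p, abundant in mature lymphocytes and a regulator of the transcription factor MYB, had 6997, 9474 and 14318 RPM in the controls and 47032, 55551 and 35569 after both drugs. The lowest combination library lay above the highest control, and the mean went from 10263 ± 3724 to 46051 ± 10027 (SD, n = 3 each). The change was 4.61-fold (95% interval 2.91 to 7.31, limma adjusted p = 0.00118). The mature sequence is listed at chr1:101115989-101116010 on the plus strand; the build named in the submitters' notes is rn6.

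miR-146a-5p, induced by NF-kB and known to damp Toll-like receptor signalling, stood at 3443, 2978 and 5134 in the controls and at 22264, 13914 and 8627 in the combination libraries. It was higher in 3 of 3 combination libraries, highest in CAFDEX2, and rose 3.7-fold (2.29 to 6.0, limma adjusted p = 0.0039). miR-155-5p, processed from the BIC transcript of activated lymphocytes and macrophages, went from 265, 213 and 400 to 1265, 1048 and 881, again without overlap. Its change was 3.72-fold (2.18 to 6.35, limma adjusted p = 0.0074).

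The leukocyte list held 16 tested members, of which these 3 rose, 2 fell and 11 did not pass, beside 6.56% higher and 4.37% lower among all tested. The members that fell were miR-223-5p, the minor arm of a myeloid microRNA, with 762, 705 and 710 RPM before 460, 327 and 426, and miR-181d-5p, with 197, 117 and 84.7 before 46.7, 32.3 and 52.6. The main arm, miR-223-3p, did not pass (log2 fold change -0.22 ± 0.22, SE), and neither did miR-142-5p, made by all blood cells (0.01 ± 0.23). The median of the list was 0.15 against 0.24 for all tested. It was -0.01 against 0.09 with median-of-ratios scaling and -0.06 against 0.04 without miR-191a-5p, but 0.11 against 0.03 with quantile normalization, so its place relative to all tested depended on the scaling. Its summed level was 96238 to 100065 RPM in the controls and 119561 to 168342 in the combination libraries, a rise carried by miR-150-5p (means of 10263 and 46051) and miR-146a-5p (3852 and 14935).

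**Figure D2:**
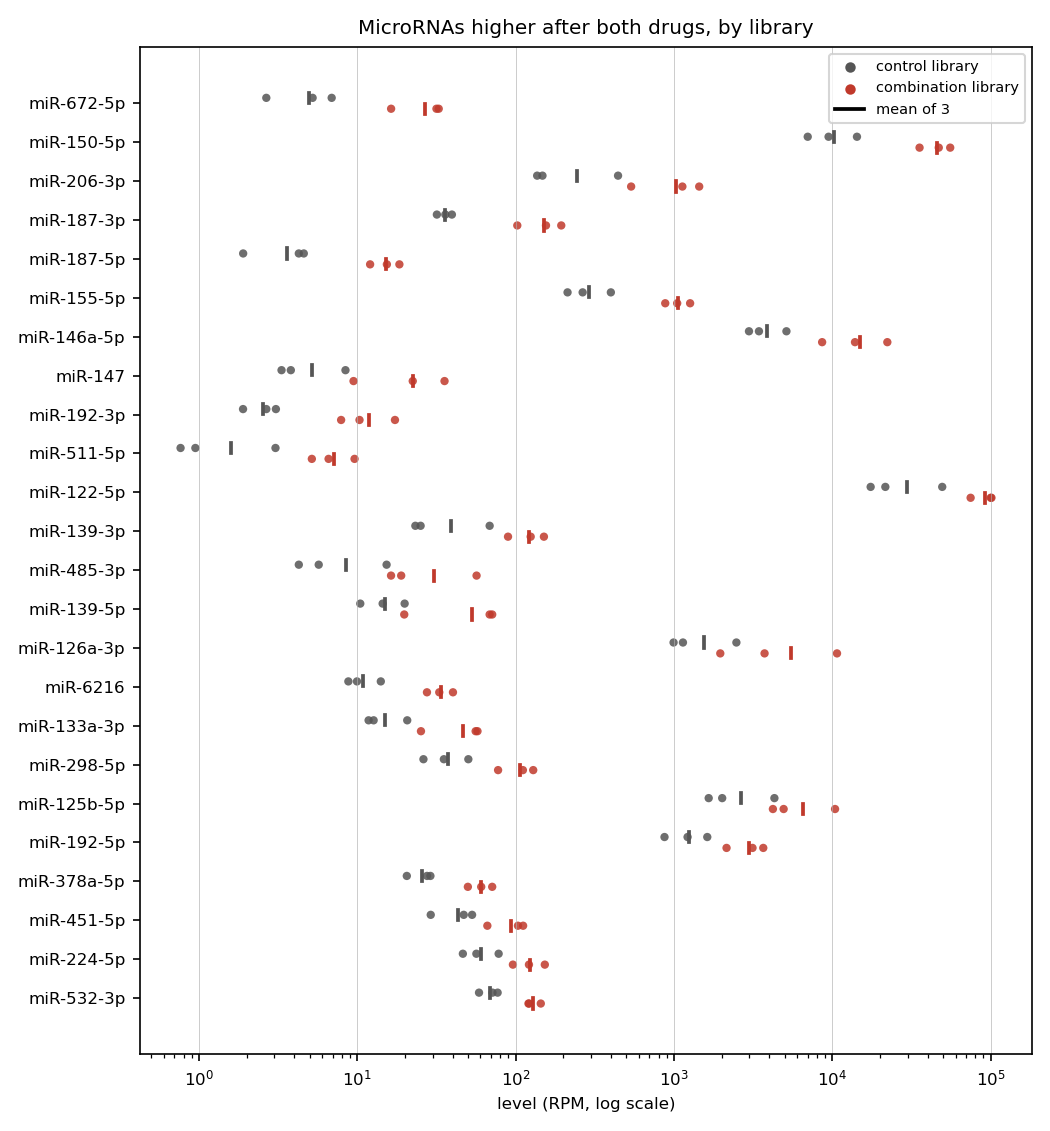
Levels in RPM (log scale) of the 24 microRNAs that rose, with 1 point per library and a bar at the mean of 3, controls in grey and combination libraries in red. The groups are apart in all rows but miR-125b-5p, miR-126a-3p and miR-139-5p, whose lowest combination library falls below the highest control.

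Other higher microRNAs are less tied to 1 cell type. miR-187-3p was even among the controls at 31.8, 39.6 and 36.0 RPM and stood at 194, 156 and 103 in the combination libraries. It rose 4.01-fold (2.46 to 6.54, limma adjusted p = 0.00351), and the other arm of its hairpin, miR-187-5p, rose too (log2 fold change 1.94 ± 0.59, SE, limma adjusted p = 0.0453). miR-187-5p rests on few reads, 5 in ctrl3.

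miR-672-5p, with 5.23, 2.67 and 6.90 RPM in the controls and 32.7, 31.7 and 16.4 after both drugs, had the largest rise among the 40, 4.79-fold (2.24 to 10.3, limma adjusted p = 0.0168). As few as 7 reads of it were counted in a library. miR-298-5p went from 26.2, 50.3 and 35.3 to 111, 129 and 77.5 and rose 2.84-fold (1.70 to 4.73, limma adjusted p = 0.0168). In both, every combination library lay above every control.

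miR-147, a microRNA induced in macrophages, had a log2 fold change of 1.86 ± 0.51, miR-511-5p, which lies within the gene of the macrophage mannose receptor, one of 1.8 ± 0.54, and miR-6216 one of 1.55 ± 0.44 (SE). miR-511-5p was down to 1 read in a control library. Neither miR-511-5p nor miR-6216 passed under all 3 of the other scalings.

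The liver list gave 3 higher, 0 lower and 11 not passing of 14 tested, beside 6.56% higher and 4.37% lower of all 366. Its median log2 fold change was 0.52 against 0.24 for all tested, and 11 of the 14 lay above 0. Of the others, miR-148a-5p stood at -1.57 and miR-148a-3p at -0.66, and neither passed. miR-122-5p, by far the main microRNA of hepatocytes and a marker of their injury, had 21630, 17469 and 49463 RPM in the controls. In the combination libraries it had 101190, 74743 and 100121, so that it took 9.20% ± 1.5 of their reads against 2.95% ± 1.74 (SD, n = 3 each). The change was 3.43-fold (1.93 to 6.10, limma adjusted p = 0.0156). ctrl5 stood above the other controls and still below every combination library.

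miR-192-5p, made in liver, kidney and gut, went from 872, 1219 and 1624 to 3666, 3134 and 2149 RPM and rose 2.43-fold (1.51 to 3.91, limma adjusted p = 0.0296). miR-192-3p, the other arm of the same hairpin, rose 3.59-fold (1.88 to 6.85, limma adjusted p = 0.0192) on 4 reads or more per library. Their neighbour miR-194-5p, listed in the same locus at chr1:221634800-221635058 in rn6, stood at 93.1, 94.1 and 133 before 266, 222 and 177. Its libraries did not overlap, but with a log2 fold change of 1.05 ± 0.35 (SE) it did not pass (limma adjusted p = 0.066). Of the 4 tested microRNAs of this locus 2 rose, and the median was 1.16.

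Of the striated muscle list 5 members were tested, 2 rose and none fell, a small list to set beside the 6.56% of all tested that rose. The median log2 fold change was 1.78 against 0.24 for all tested, and 1.53 to 1.62 under the 3 other scalings. miR-206-3p, known as a microRNA of skeletal muscle, had 137, 148 and 444 RPM in the controls and 1131, 1444 and 537 in the combination libraries. The groups were apart, CAFDEX6 only narrowly above ctrl5, and the change was 4.59-fold (1.99 to 10.6, limma adjusted p = 0.0296).

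miR-133a-3p, shared by skeletal and cardiac muscle, went from 11.8, 12.7 and 20.7 to 56.0, 57.5 and 25.3. It rose 2.86-fold (1.5 to 5.45, limma adjusted p = 0.0423). It did not pass with quantile normalization or without miR-191a-5p (limma adjusted p = 0.0678 and 0.057). miR-1-3p, the most abundant microRNA of both muscles, stood at 34.7, 24.4 and 82.0 before 258, 156 and 73.2, and with CAFDEX6 below ctrl5 it did not pass (3.43-fold, 1.49 to 7.88, limma adjusted p = 0.0549). miR-1b, which shares its seed GGAAUGU with miR-1-3p and miR-206-3p, did not pass either (limma adjusted p = 0.0774). The heart-enriched miR-499-5p had at most 7.91 RPM, and 7 listed muscle microRNAs, among them both arms of the cardiac miR-208b, were at 0 in all 6 libraries.

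Of 17 tested members of the endothelium and smooth muscle list 2 rose and none fell, with a median of 0.45. That share is close to the 10.9% of all tested that passed, so the count says nothing particular about the list. miR-126a-3p, from an intron of the endothelial gene Egfl7, had 1140, 995 and 2480 RPM in the controls and 3735, 10712 and 1962 after both drugs. CAFDEX3 was far the highest and CAFDEX6 lay below ctrl5, and the fitted change was 3.03-fold (1.5 to 6.14, limma adjusted p = 0.0441). miR-125b-5p, an abundant microRNA of stromal and vascular cells, was likewise highest in CAFDEX3, with 1658, 2017 and 4310 before 4217, 10410 and 4929, and CAFDEX2 lay below ctrl5 (2.47-fold, 1.42 to 4.27, limma adjusted p = 0.0423). The summed level of the list was 47284 in CAFDEX3 and 15649 and 16139 in the other combination libraries, against 13416 to 15912 in the controls. Without CAFDEX3 neither miR-126a-3p nor miR-125b-5p passed, but only 8 of the 40 passed in that fit. Both also lost their call without CAF5, CAFDEX2, ctrl1 or ctrl3, so the loss is not particular to CAFDEX3.

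The list of epithelium of gut, kidney and skin held 16 tested members, and none passed. Its median was 0.53, and its summed level was again highest in CAFDEX3 at 7967 RPM, beside 3631 and 3781 in the other combination libraries and 3166 to 4333 in the controls. Of the miR-200 family of epithelia, miR-200c-3p stood at 188, 142 and 158 before 263, 236 and 216, without overlap but with a log2 fold change of 0.55 ± 0.48 (SE).

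The list of stress and hypoxia gave 3 higher, 0 lower and 8 not passing of 11 tested, where 6.56% of all tested were higher. Its median was 0.36. Like the other lists it was chosen with earlier results of these data known, so the count describes it and tests nothing. miR-139-3p and miR-139-5p, from a hairpin within the phosphodiesterase gene Pde2a, rose 3.40-fold (1.70 to 6.82) and 3.06-fold (1.52 to 6.15). Their limma adjusted p was 0.0316 and 0.0441. miR-224-5p rose 2.04-fold (1.28 to 3.26, limma adjusted p = 0.0489). It did not pass under any of the 3 other scalings (limma adjusted p = 0.0639 to 0.0949). miR-210-3p, the classical target of hypoxia-inducible factor, did not pass, at 523, 656 and 525 before 509, 477 and 507, and neither did miR-34a-5p, a target of p53 (log2 fold change 0.04 ± 0.27, SE).

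The erythrocyte list gave 1 higher, 1 lower and 7 not passing of 9 tested (10.9% of all tested passed), with a median of 0.27. miR-451-5p, cut by Argonaute 2 in red-cell precursors, had 47.0, 53.1 and 29.1 RPM in the controls and 112, 104 and 66.3 in the combination libraries. It rose 2.17-fold (1.33 to 3.54, limma adjusted p = 0.0441), and it did not pass under any of the 3 other scalings (adjusted p = 0.0534 to 0.0754). miR-16-5p, abundant in red cells as in most tissues, took 9.65% ± 0.22 of control reads and 11.8% ± 1.8 of combination reads (SD, n = 3 each) and did not pass. miR-185-3p fell, from 33.7, 12.2 and 8.43 to 5.13, 1.58 and 3.45. Its combination values rest on few reads, and it did not pass in the voom fit on recovered reads (limma adjusted p = 0.0614).

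The platelet list had 1 member higher (miR-126a-3p), 1 lower (miR-326-3p) and 7 not passing of 9 tested, again beside 10.9% passing overall. Its median was 0.15, and it was -0.02 with median-of-ratios scaling, 0.02 with quantile normalization and 0.19 without miR-191a-5p. miR-326-3p stood at 845, 616 and 366 RPM before 258, 193 and 304. The groups were apart, the highest combination library below the lowest control.

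The miR-17-92 cluster, which supports the growth of B cells and other proliferating cells, gave 4 of the 16 lower microRNAs. Of the 20 tested members of the list of miR-17 clusters 4 fell, none rose and 16 did not pass, where 4.37% of all tested fell. The list had a median of -0.47 against 0.24 for all tested and -0.57 to -0.69 under the 3 other scalings. miR-20a-5p had 2043, 1367 and 809 RPM in the controls and 390, 302 and 364 in the combination libraries. It was lower in 3 of 3 and even among them, and it was 3.74-fold lower (2.18 to 6.44, limma adjusted p = 0.0074).

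miR-92a-3p, from the same cluster and abundant in red cells and vesicles, went from 35662, 32443 and 18286 to 10045, 9057 and 13830, 2.56-fold lower (1.68 to 3.92, limma adjusted p = 0.0132). miR-18a-5p, with 215, 177 and 140 before 91.4, 59.3 and 71.5, was 2.38-fold lower (1.45 to 3.89, limma adjusted p = 0.0316). miR-17-5p stood at 778, 754 and 570 before 365, 272 and 419. In each of the 3 the groups were apart.

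In rn6 the cluster lies at chr15:100179892-100180653 on the plus strand, where 10 microRNAs were tested, 4 fell and the median was -1.11. miR-17-5p and miR-92a-3p are also listed in the related cluster at chrX:140117109-140117958, so reads of those copies are part of their values. The 6 tested microRNAs of the miR-106b-25 cluster, at chr12:19307351-19307822, had a median of -0.06 and none passed.

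**Figure D3:**
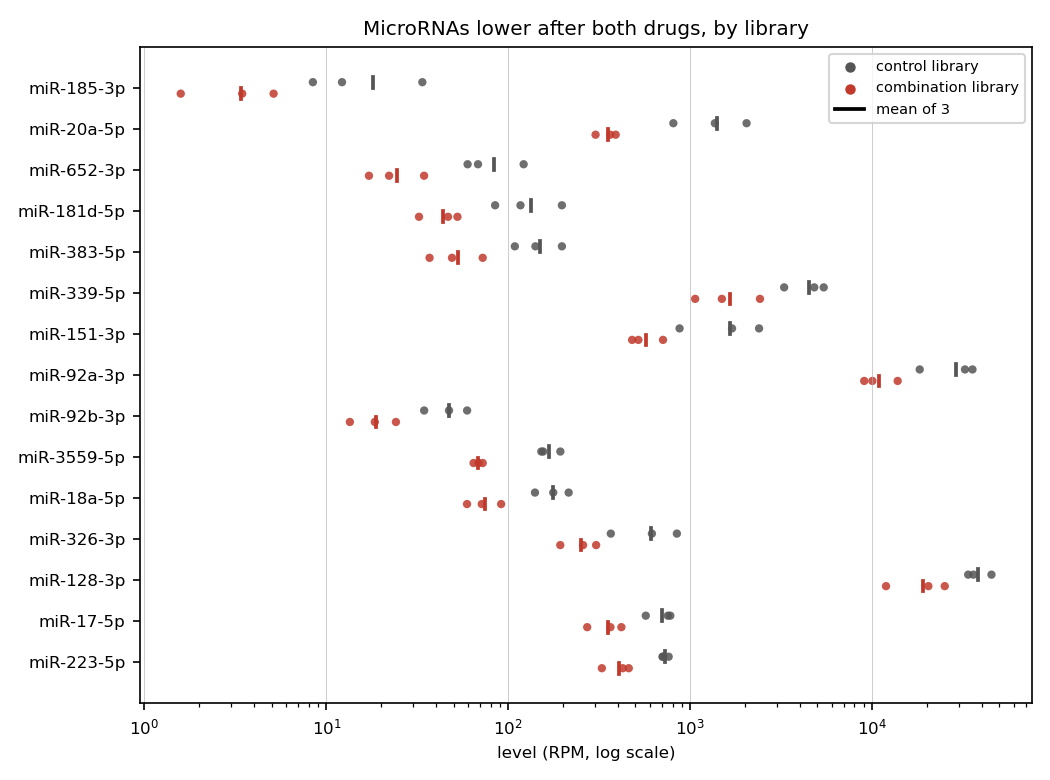
Levels in RPM (log scale) of 15 of the 16 microRNAs that fell, with 1 point per library and a bar at the mean of 3, controls in grey and combination libraries in red. In every row all combination libraries lie below all controls; miR-488-3p, at 0 in 2 libraries, cannot be drawn on a log axis.

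Families that share a seed held both members that passed and members that did not. Of the 5 tested microRNAs with the seed AAAGUGC, shown above, miR-17-5p and miR-20a-5p fell, while miR-93-5p stood at 7272, 7080 and 6650 before 8896, 7541 and 5646 (log2 fold change 0.05 ± 0.24, SE). Of the 5 with AUUGCAC, miR-92a-3p and miR-92b-3p fell, and miR-25-3p stood at 10708, 9703 and 9328 before 14682, 14026 and 9899 (0.36 ± 0.24). miR-92b-3p, which comes from a locus of its own, had 59.4, 47.2 and 34.5 before 13.5, 18.5 and 24.1. Of the 14 seed families with at least 3 tested members 5 held a microRNA that passed, and no family had all its members passing. In the family of miR-181, with the seed ACAUUCA, 1 of 4 fell (miR-181d-5p), and the neighbouring miR-181c-5p had a log2 fold change of -1.17 ± 0.44 (SE), which did not pass, while that of miR-181a-5p, from other loci, was 0.79 ± 0.30.

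The let-7 family, which restrains proliferation and shares the seed GAGGUAG, had 9 tested members and none passed. Its median was -0.08, and its members ranged from -0.36 to 0.56. let-7c-5p stood at 40269, 32920 and 48615 before 24256, 51171 and 47229, with CAFDEX2 the lowest library. Many members of this family differ at few bases, so divided reads make their values less certain.

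The brain list gave 0 higher, 2 lower and 12 not passing of 14 tested, beside 4.37% lower of all tested, with a median of -0.09. Its members ranged from -1.49 to 1.39, and 6 of the 14 lay above 0. miR-128-3p, enriched in neurons but also made by blood cells, had 45353, 36125 and 33780 RPM in the controls and 20409, 11936 and 25109 after both drugs. It was 2.08-fold lower (1.39 to 3.12, limma adjusted p = 0.0296), with no overlap. miR-383-5p went from 197, 109 and 141 to 49.1, 36.9 and 72.4, 2.81-fold lower (1.70 to 4.67, limma adjusted p = 0.0168). Both arms of miR-124, the most neuron-specific of the list, were at 0 in all 6 libraries.

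The list of serum normalisers, microRNAs that are often taken as stable references, gave 1 lower and 9 not passing of 10 tested, beside 4.37% lower of all tested. Its median was -0.59, against 0.24 for all tested, and 0 of the 10 lay above that overall median. miR-652-3p had 121, 68.2 and 59.8 RPM in the controls and 22.1, 17.1 and 34.5 in the combination libraries, 3.27-fold lower (1.79 to 5.98, limma adjusted p = 0.0192). miR-191a-5p, miR-423-5p and miR-425-5p, which did not pass, had log2 fold changes of -0.53 ± 0.23, -0.62 ± 0.35 and -0.84 ± 0.32 (SE).

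miR-339-5p was the lower microRNA with the smallest p after miR-20a-5p: 5425, 4813 and 3287 RPM before 1494, 1066 and 2421, 2.81-fold lower (1.81 to 4.37, limma adjusted p = 0.00899). miR-3559-5p went from 193, 152 and 156 to 64.4, 68.6 and 72.4, 2.41-fold lower (1.57 to 3.69, limma adjusted p = 0.0168). Both were lower in 3 of 3 combination libraries. miR-488-3p, from an intron of the neuronal gene Astn1, was counted with 22, 6 and 13 reads in the controls and 0, 0 and 1 in the combination libraries, and no fold is given for so few reads.

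The Dlk1-Dio3 cluster, an imprinted group of microRNAs transcribed from the maternal chromosome, had 24 tested members, of which 1 rose, none fell and 23 did not pass, beside 6.56% of all tested that rose. Its median was 0.95, with 22 of the 24 above the overall median of 0.24, and 0.75 to 0.84 under the 3 other scalings. miR-485-3p, the member that passed, had 4.28, 5.71 and 15.3 RPM before 16.4, 56.7 and 19.0 (limma adjusted p = 0.0492). It did not pass under any of the 3 other scalings (limma adjusted p = 0.0552 to 0.104). Another 28 listed members were at 0 in all 6 libraries. The summed level of the list was 304, 192 and 426 in the controls and 593, 1054 and 393 in the combination libraries, where CAFDEX6 lay below ctrl5.

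**Figure D4:**
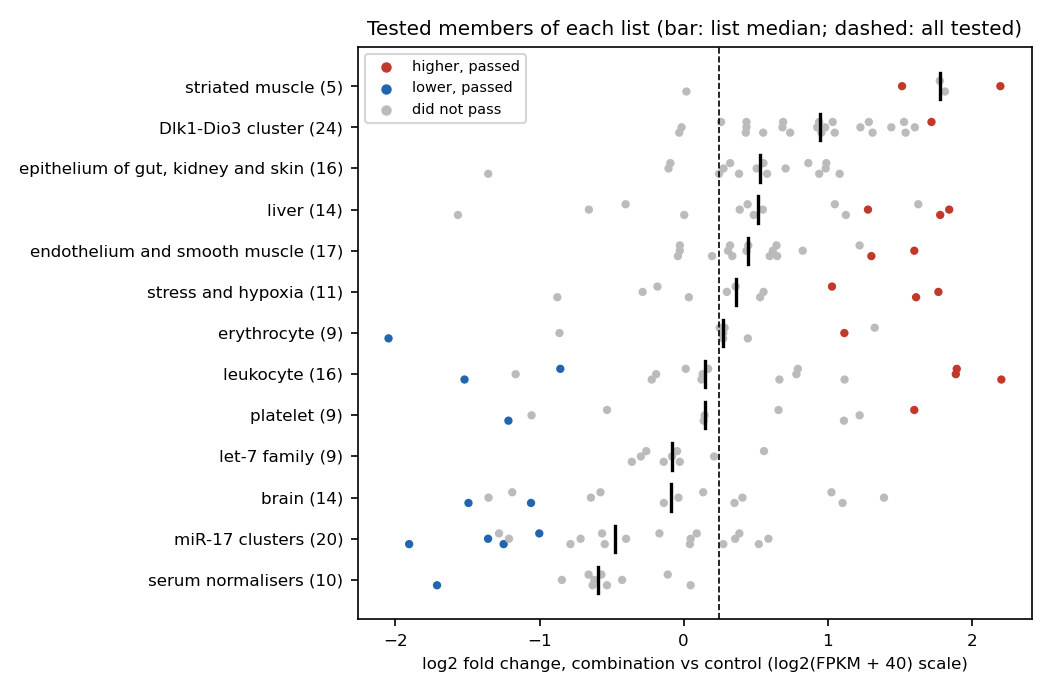
Log2 fold changes (horizontal axis, log2(FPKM + 40) scale) of the tested members of the 13 lists, with the number tested in brackets. Red points rose, blue points fell, grey points did not pass, the black bar is the list's median and the dashed line the median of all tested, 0.24; the bars run from -0.59 for the serum normalisers to 1.78 for striated muscle.

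Both arms were tested for 102 hairpins. In 3 of them (miR-139, miR-187 and miR-192) both arms passed, all higher, and in 16 a single arm passed. In 14 of those 16 the other arm had a change of the same sign, and 73 of all 102 pairs had the same sign. The exceptions were miR-151, with -1.44 for the 3′ arm and 0.18 for the 5′ arm, and miR-485, with 1.72 and -0.01. miR-151-3p fell from 2393, 1700 and 875 to 480, 519 and 709. The GC content of the mature sequences had a median of 52.2% in the 23 higher and 47.5% in the 14 lower microRNAs with a sequence, against 50.0% in all tested with one.

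Among the 6 libraries compared, a few rare members were above 0 in 1 of the groups alone. miR-101b-5p, miR-29a-5p, miR-362-5p, miR-488-5p, miR-5132-3p and miR-6324 were above 0 in all 3 controls and at 0 in all 3 combination libraries. miR-211-5p, miR-27b-5p and miR-6315 showed the reverse. Each had at most 8 reads in a library, and a group at 0 allows up to 0.497 RPM in the controls and 1.01 in the combination group (3 reads over the group, counting error only). None was tested. Over all members, 340 were above 0 in all 6 libraries, 27 were at 0 in the combination group and not in the controls, and 9 the reverse.

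The same 40 microRNAs were set beside the groups given 1 drug. Those comparisons share the controls, so their values are given side by side and the difference is tested directly between the treated groups. miR-150-5p had a mean of 10263 RPM in the controls, 27739 after caffeine, 18572 after dextromethorphan and 46051 after both. The combination was 1.71-fold above caffeine (1.08 to 2.71, limma adjusted p = 0.786), which did not pass, and 2.48-fold above dextromethorphan (1.56 to 3.93, limma adjusted p = 0.0244). miR-146a-5p had means of 3852, 8634, 6133 and 14935. The combination was 1.63-fold above caffeine (1.01 to 2.64) and 2.30-fold above dextromethorphan (1.42 to 3.73, limma adjusted p = 0.0554), and neither passed.

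miR-155-5p stood at 293, 511, 593 and 1065 in the same order, and the combination was 2.13-fold above caffeine (1.25 to 3.64, limma adjusted p = 0.786). Here all 3 combination libraries, at 881 or more, lay above all 3 caffeine libraries, at 630 or less. miR-122-5p stood at 29520, 93335, 91046 and 92018. The combination differed from caffeine by a factor of 0.999 (0.562 to 1.77) and from dextromethorphan by 1.10 (0.621 to 1.96), intervals that leave room for differences of either sign.

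Of the muscle microRNAs, miR-206-3p had means of 243, 2156, 634 and 1037. The combination was at 0.481 times caffeine (0.209 to 1.11) and miR-133a-3p at 0.449 times (0.236 to 0.857, limma adjusted p = 0.786); neither passed. miR-192-5p had 1238, 2735, 10028 and 2983, and the combination was at 0.305 times dextromethorphan (0.189 to 0.492, limma adjusted p = 0.00416). Its lowest dextromethorphan library, at 7057, lay above the highest combination library, at 3666. miR-20a-5p had 1406, 590, 731 and 352, with the combination at 0.642 times caffeine (0.373 to 1.10) and 0.489 times dextromethorphan (0.284 to 0.841, limma adjusted p = 0.159). miR-339-5p had 4509, 2691, 2053 and 1660.

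Between the combination and caffeine no microRNA of the 366 passed in limma (0%), with a smallest adjusted p of 0.786, and 22 had an unadjusted p under 0.05, among them 8 of the 40. The voom fit on recovered reads gave 0 as well. Between the combination and dextromethorphan 13 passed (3.55%): 12 were lower (3.28%) and 1 was higher (0.273%). Without adjustment 59 reached a p under 0.05. Of the 40, miR-150-5p and miR-192-5p were among the 13. Without DEX1 24 passed, without DEX2 9 and without DEX3 10. DEX2 and DEX3 were the shallowest libraries of the study, with 443564 and 403913 reads. Leaving out both leaves 1 dextromethorphan library, DEX1, so how far the 13 calls rest on DEX2 and DEX3 together could not be tested. By point estimate, 17 of the 24 higher microRNAs were above their caffeine level and 15 of the 16 lower ones below it. No test supports this description. The 40 were picked for combination values far from control, which favours values beyond those of caffeine. These counts, and the 8 of the 40 above, therefore say nothing about an added change.

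**Figure D5:**
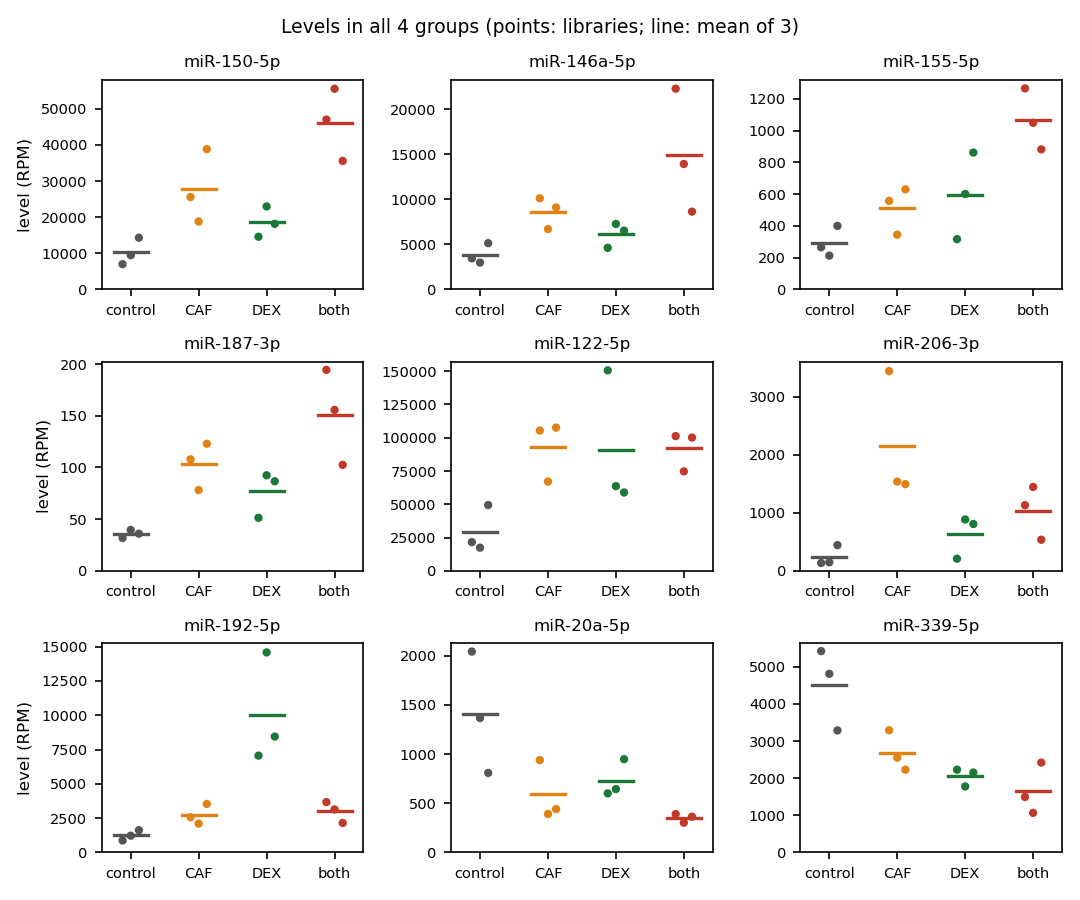
Levels in RPM of 9 microRNAs in the control, caffeine (CAF), dextromethorphan (DEX) and combination (both) groups, with 1 point per library and a line at the mean of 3; axes start at 0. The combination has the highest mean for miR-150-5p (46051), miR-146a-5p (14935) and miR-155-5p (1065), caffeine for miR-206-3p (2156), and dextromethorphan for miR-192-5p (10028).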

How the data were processed

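The table deposited by the authors held FPKM for each mature microRNA. The submitters' processing notes list build rn6 and, with no roles, Subread 2.0.1 and featureCounts, STAR 2.7.10a, DESeq2 1.20.0 and cutadapt 3.7. Per the labels' protocols, the miRNeasy Micro Kit gave the RNA, and the QIAseq miRNA kit, whose primers carry unique molecular indices, gave the libraries; use of the indices for removing duplicates is not stated there. FPKM times length summed to 1 constant in every column, so each value is relative to the microRNA reads of its library. All values above 0 were multiples of 0.01 of a read (tolerance 0.0001 of a step), which gave the reads per library and per microRNA; fractions arise when a read matching several places is divided.

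The 836 rows were summed to 752 names (69 names had several rows, among them miR-17-5p, miR-92a-3p, miR-125b-5p and miR-128-3p of those that passed). Log2(FPKM + 40) was fitted with limma 3.58.1 in R 4.3.3 over all 4 groups, with a mean-variance trend (8 residual and 7.58 prior degrees of freedom) and Benjamini-Hochberg adjustment over 366 microRNAs; tests are two-sided, and 95% intervals of folds come from the fit and are not adjusted. Single quantities had an exact permutation test over all 20 assignments. The fits were tested on simulated data with independent noise and planted changes larger than that of any microRNA that passed. That run does not show how well changes of the size reported here are found. Tables and figures used Python 3.11.15, numpy 2.4.6, pandas 2.3.3, scipy 1.17.1 and matplotlib 3.10.9.

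The rule for named microRNAs took the 12 largest rises and falls among those that passed and lay above the median level, passing and the 3 most abundant members of each list, the 10 most abundant microRNAs, and those at 0 in 1 of the groups compared and above 0 throughout the other; others were named after their values were seen. The lists covered leukocyte, erythrocyte, platelet, liver, striated muscle, brain, epithelium, endothelium and smooth muscle, let-7, the miR-17 clusters, Dlk1-Dio3, stress and hypoxia, and serum normalisers. The members and lists were chosen with earlier results of these data known. Alternatives covered pseudocount, filter, scaling, spread model, voom on recovered reads, separate rows, the red-cell index as a covariate and each library left out.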

Additional observations from a re-analysis of the deposited data

How the results depend on the processing

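Against control, 13 microRNAs passed with no filter on low values (549 tested), 17 with no mean-variance trend and 1 with the red-cell index as a covariate, beside 40. The pseudocount, a stricter filter, the scaling, a fit of the compared groups alone, voom on recovered reads and separate rows gave 35 to 46. Leaving out 1 library gave 3 to 56 against control, 9 to 24 against dextromethorphan (13 with all libraries) and 0 against caffeine in limma at every setting. Leaving out DEX2 and DEX3 together was an alternative chosen after seeing the data. It leaves 1 dextromethorphan library, so no count against dextromethorphan is given for it. The causes of these shifts were not tested. Reads per library, the red-cell index and the share of miR-191a-5p kept their direction without any 1 library. The difference in the share of the 10 most abundant microRNAs, -0.638 percentage points, ranged from -2.40 to 1.56 and was 0.162 without ctrl5 and 1.56 without CAFDEX3. With 758290 reads in the shallowest combination library, low microRNAs rest on few reads. No paired analysis was possible because the library numbers of the data columns are not those of the sample titles. The sample labels also describe no pairing of rats between the groups, so shared replicate numbers are no sign of a paired design.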
